A study of Rattus norvegicus with 6 samples.

Results

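The small leucine-rich proteoglycans (SLRPs) were described in primary rat chondrocytes with and without retinoic acid (RA). The set was named as 10 genes: Dcn, Bgn, Aspn, Fmod, Lum, Prelp, Omd, Epyc, Ogn and Chad. A gene was taken as a member when its symbol in the count files was the same as the name, and 9 of the 10 names were found among the 18923 genes. Omd, the gene of osteomodulin, had no row under that symbol and was not analysed here. The chondrocytes came from wild-type newborn female Sprague-Dawley rats and were used at an early passage. The control group (CON) was kept for 24 h in high-glucose DMEM with fetal bovine serum, and the RA group in the same medium with 1 µM all-trans RA, with 3 samples in each group. A vehicle in the CON medium is not named in the labels. The methods call the samples of a group independent and do not say whether they came from separate litters, so the p-values measure the spread between these samples.

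SLRPs are secreted matrix proteins with a core of leucine-rich repeats, and many of them carry chondroitin, dermatan or keratan sulfate chains. They bind to the surface of collagen fibrils, where they regulate fibril thickness and spacing, and several of them hold growth factors such as TGF-β in the matrix. In cartilage they lie between the type II collagen network and aggrecan, and decorin, biglycan and asporin form class I of the family. Fibromodulin, lumican, PRELP and osteomodulin form class II, epiphycan and osteoglycin class III, and chondroadherin is placed in class IV.

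Poly(A) RNA was sequenced, and the files gave a count of reads and an FPKM value per gene, where FPKM corrects the count for gene length and sequencing depth. The total count lay between 29370025 and 38007486 per sample. A gene was called differentially expressed (DEG) when edgeR's quasi-likelihood test over all 13438 genes that passed a filter on low counts gave a p below 0.05 after Benjamini-Hochberg adjustment, with a log2 fold change larger than 0.58 in size. By this rule 4.96% of the tested genes were DEGs, and 2.29% were DEGs that were lower in RA. CON sample 1 stood apart from the rest, with correlations of log2 CPM of 0.985 and 0.983 to the other CON samples, against 0.992 between those 2 and 0.991 for each pair within RA. Values without this sample are given where leaving it out changed a call. The chondrocyte label was checked against 10 marker genes, and all 10 were detected in every sample. Of the markers of other cell types, Emcn of endothelium had 0 reads in each library, and Adgre1 of macrophages had 1 read in RA sample 2 and 0 elsewhere. Others of the same lists were detected, with Egfl7 of endothelium between 5.28 and 7.97 FPKM and Cd14 of macrophages between 11.9 and 15.8 FPKM. The 10 markers of fibroblast, tendon and perichondrium ranged widely, from Col1a1 between 2415 and 3588 FPKM and Thy1 between 322 and 378 FPKM to Pi16 between 1.65 and 2.69 FPKM and Dpp4 between 0.154 and 0.462 FPKM.

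In these cells 2 of the 8 tested members were DEGs, and both fell in RA, beside 2.29% of all tested genes. Epyc (ENSRNOG00000004717), which encodes epiphycan, fell 3.36-fold, and Fmod (ENSRNOG00000003183), which encodes fibromodulin, fell 2.01-fold. Bgn (ENSRNOG00000055962), by far the most abundant member, went from 1178 ± 43.8 to 1124 ± 13.7 FPKM (SD, n = 3 each). None of the 8 was a DEG in the upward direction with edgeR, DESeq2 or limma, and none had a rise with an unadjusted edgeR p below 0.05, which makes the count 0 in each case. Under an adjusted p alone, without the fold-change threshold, 4 of the 8 were lower in RA, beside 4.5% of all tested genes. In 5 of the 8 the CON and RA samples did not overlap and RA was the lower group, beside 13.3% of all tested genes. The median log2 fold change of the 8 was -0.34 and that of all tested genes -0.0057. Aspn did not pass the filter. Ogn passed it on its CON counts, so that the filter favoured a lower level in RA for this gene. Ogn is among the 5 without overlap and in the median. These counts therefore do not describe the whole family.

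The promoter sequences of Fmod and Epyc are shown because these genes were DEGs, that of Lum because it shares a gene cluster with Epyc and was not a DEG, and that of Chad because it is the member whose estimate was above 0. RefSeq promoters of the assembly GRCr8 were at hand for 7 of the 10 genes. Each sequence is the 250 bases before the annotated start, 5′ to 3′ on the strand of the gene, here the plus strand. They lie at chr13:48045317-48045566, chr7:34323082-34323331, chr7:34245456-34245705 and chr10:80008795-80009044. Capitals mark matches to AGGTCA, the core element bound by retinoid receptors, to ACAAT, the core element bound by SOX factors, both searched on both strands, and to TATAAA on the strand of the gene.
Fmod: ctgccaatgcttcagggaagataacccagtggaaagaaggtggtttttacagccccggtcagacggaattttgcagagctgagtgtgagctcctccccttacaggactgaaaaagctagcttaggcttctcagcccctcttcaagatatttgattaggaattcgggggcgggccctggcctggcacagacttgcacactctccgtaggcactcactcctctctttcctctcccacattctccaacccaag
Epyc: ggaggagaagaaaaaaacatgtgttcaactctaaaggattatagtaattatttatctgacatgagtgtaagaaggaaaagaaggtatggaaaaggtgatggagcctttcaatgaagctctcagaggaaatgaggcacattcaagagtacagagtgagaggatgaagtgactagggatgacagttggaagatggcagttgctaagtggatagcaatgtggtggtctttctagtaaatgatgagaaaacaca
Lum: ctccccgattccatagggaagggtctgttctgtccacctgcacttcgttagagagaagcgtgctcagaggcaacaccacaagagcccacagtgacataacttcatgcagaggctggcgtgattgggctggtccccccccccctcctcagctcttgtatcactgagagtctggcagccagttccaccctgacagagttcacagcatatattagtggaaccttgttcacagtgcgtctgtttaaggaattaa
Chad: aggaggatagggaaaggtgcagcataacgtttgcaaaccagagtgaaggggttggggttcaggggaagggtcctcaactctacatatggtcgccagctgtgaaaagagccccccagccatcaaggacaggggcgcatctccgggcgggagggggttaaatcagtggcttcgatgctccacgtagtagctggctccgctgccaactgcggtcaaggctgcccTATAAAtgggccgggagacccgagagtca
AGGTCA was present in 13.7% of 27457 RefSeq promoters of this length, ACAAT in 29.6% and TATAAA in 8.38%. The windows of Fmod, Epyc and Lum held no match to these letters. The window of Chad held TATAAA 29 bases before the start and no match to the other motifs. Of the 3 promoters at hand that are not printed, that of Omd, which was not analysed here, held 1 match to AGGTCA and 1 to ACAAT, that of Ogn held TATAAA 222 bases before the start, and that of Aspn held no match. A match, or the lack of one in this window, says nothing of whether a factor binds.

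The members ranged from a mean of 1178 FPKM in CON for Bgn to 0.0441 FPKM for Aspn. The order by mean FPKM was Bgn, Fmod, Lum, Prelp, Epyc, Dcn, Chad, Ogn and Aspn, and it was the same in CON and in RA. The samples of neighbouring genes in this order did not overlap in either group, although the nearest RA samples of Ogn and Aspn rested on 3 and 4 reads and cannot be told apart by counting. The 9 genes summed to 2017, 1882 and 1915 FPKM in CON and to 1599.5, 1629.5 and 1627 FPKM in RA. RA was the lower group without overlap, at 83.5% of the CON mean, and no test was made on this sum. The members took between 0.508% and 0.538% of all counted reads in CON and between 0.415% and 0.425% in RA.

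**Figure D1:**
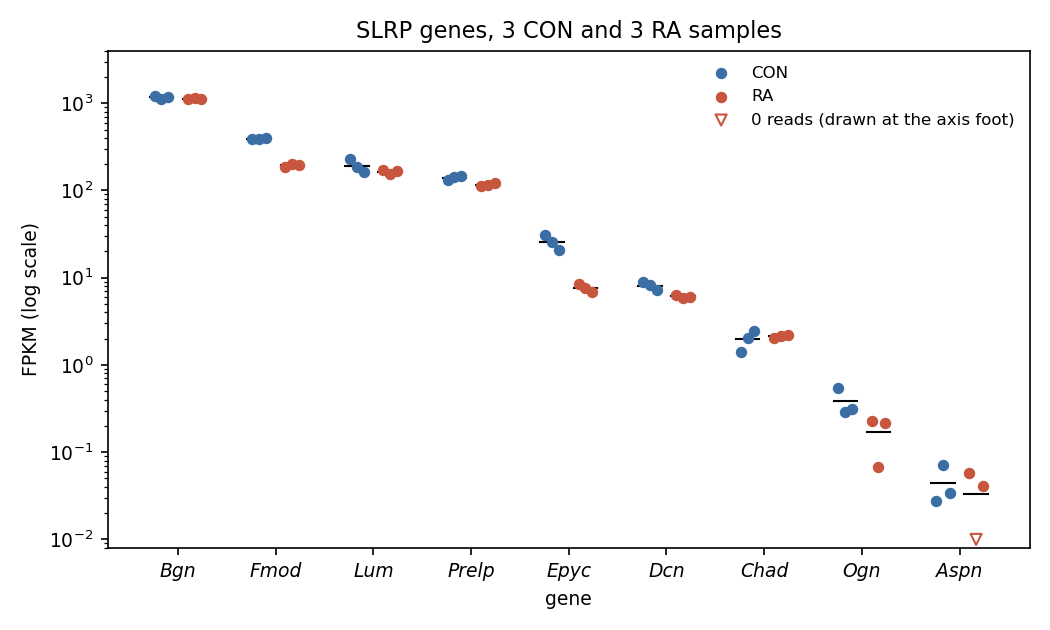
FPKM (log axis) of the 9 SLRP genes in each of the 3 CON and 3 RA samples, with a bar at the group mean and genes ordered by level. Fmod and Epyc show a gap between the groups, Bgn lies between 1110.4 and 1219 FPKM in all samples, and the sample of Aspn without reads is drawn as an open triangle at the axis foot.

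Among the class I members, Bgn encodes biglycan, a proteoglycan with chondroitin or dermatan sulfate chains that is also known as a signal to innate immune receptors. Its samples stood at 1219, 1132 and 1183 FPKM in CON and at 1110.4, 1138 and 1125 FPKM in RA. The groups overlapped, and the spread within each was narrow, with a coefficient of variation of 3.72% in CON and 1.22% in RA. Its log2 fold change was -0.080 (standard error 0.048, adjusted p = 0.355, edgeR), with a 95% interval from -0.19 to 0.030. A change as large as the threshold of 0.58 lies outside this interval.

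Dcn (ENSRNOG00000004554) encodes decorin, which limits the lateral growth of collagen fibrils and binds TGF-β. It was expressed far below Bgn, at 8.81, 8.17 and 7.21 FPKM in CON and 6.35, 5.92 and 6.02 in RA. Every RA sample lay below every CON sample. The log2 fold change was -0.41 (standard error 0.101, adjusted p = 0.0378, edgeR), with an interval from -0.65 to -0.18, so Dcn passed the adjusted p and not the fold-change threshold. The adjusted p was 0.122 when CON sample 2 was left out, and 0.109, 0.152 and 0.151 when the RA samples 1, 2 and 3 were, while the estimate stayed between -0.48 and -0.35. The ratio of Bgn to Dcn, both in FPKM, stood at 138, 139 and 164 in CON and at 175, 192 and 187 in RA.

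Aspn (ENSRNOG00000050431) encodes asporin, which has an aspartate-rich stretch in place of a glycosaminoglycan chain and is known in cartilage as a binding partner of TGF-β. It was close to absent, with counts of 2, 5 and 3 reads in the CON samples and 4, 0 and 3 in the RA samples. For RA sample 2 the count of 0 allows a level of up to 0.0436 FPKM. No fold change is given, since both groups lay near the level of 3 reads.

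Among the class II members, Fmod encodes a keratan sulfate proteoglycan that binds type I and type II collagen and takes part in fibril assembly. Its FPKM was 391, 389 and 395 in CON and 188, 203 and 198 in RA. The CON samples were nearly equal, with a coefficient of variation of 0.782%, and the RA samples formed a separate group at 50.2% of the CON mean with a coefficient of variation of 3.91%. The log2 fold change was -1.01 (standard error 0.0533, adjusted p = 2.54e-05, edgeR), with an interval from -1.13 to -0.88. The call held whichever of the 6 samples was left out, with estimates between -1.03 and -0.97.

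Lum (ENSRNOG00000004610) encodes lumican, which shares a binding region on collagen with fibromodulin and is best known from the cornea. Its FPKM was 232, 184 and 162 in CON and 172, 156 and 167 in RA, so that the groups overlapped and CON sample 1 was the highest. On the log2 scale the change was -0.23 (standard error 0.116, adjusted p = 0.268, edgeR), with an interval from -0.50 to 0.033. Without CON sample 1 the estimate was -0.082 (adjusted p = 0.402, edgeR, range over all fits 0.0808 to 0.537).

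Prelp (ENSRNOG00000003120) encodes a protein with an arginine-rich end that binds heparan sulfate and can anchor collagen to basement membranes. It stood at 133, 141 and 145 FPKM in CON and at 112, 117 and 121 in RA, without overlap. Its log2 fold change was -0.27 (standard error 0.0621, adjusted p = 0.0270, edgeR), with an interval from -0.42 to -0.13 that does not reach the threshold of 0.58. With a sample left out, the adjusted p was 0.00100, 0.102 and 0.0610 for the CON samples 1, 2 and 3 and 0.126, 0.118 and 0.0784 for the RA samples 1, 2 and 3. The estimate stayed between -0.31 and -0.24.

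Of the class III members, Epyc encodes epiphycan, a dermatan sulfate proteoglycan of the growth plate. It had the largest change among the members, at 30.7, 25.7 and 20.5 FPKM in CON and 8.57, 7.65 and 6.84 in RA. The lowest CON sample was more than double the highest RA sample. The counts behind these values ran from 441 to 1967 reads. On the log2 scale Epyc changed by -1.75 (standard error 0.146, adjusted p = 2.24e-04, edgeR), with an interval from -2.09 to -1.41, and the call held whichever of the 6 samples was left out, between -1.88 and -1.60.

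Ogn (ENSRNOG00000047786) encodes osteoglycin, also called mimecan, which was first studied in bone matrix. It was scarce, with 25, 13 and 18 reads in the CON samples and 10, 3 and 10 in the RA samples, or 0.383 ± 0.140 and 0.170 ± 0.088 FPKM (SD, n = 3 each). The groups did not overlap, but the coefficient of variation was 36.7% in CON and 51.8% in RA. Its change of -1.16 on the log2 scale (standard error 0.487) had an adjusted p of 0.192 from edgeR, and Ogn was not a DEG. The size of this change depended on the scale and the samples: it was -0.24 in limma on log2(FPKM + 1), where the pseudocount shrinks the change of low genes, -0.80 without RA sample 2 and -0.84 without CON sample 1, and Ogn was no DEG in these fits. The edgeR interval ran from -2.28 to -0.047, so a change of the size seen for Epyc could not be told from a small one at this depth.

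Chad (ENSRNOG00000003304), of class IV, encodes chondroadherin, a cartilage protein without glycosaminoglycan chains that binds integrins and type II collagen. It was at 1.40, 2.04 and 2.44 FPKM in CON and 2.06, 2.13 and 2.18 in RA. The RA samples lay inside the range of the CON samples, whose coefficient of variation was 26.7%. The log2 fold change was 0.094 (standard error 0.205, adjusted p = 0.820, edgeR), with an interval from -0.38 to 0.56. The estimate was -0.10 without CON sample 1, the lowest of the CON samples, so its sign rested on that sample.

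**Figure D2:**
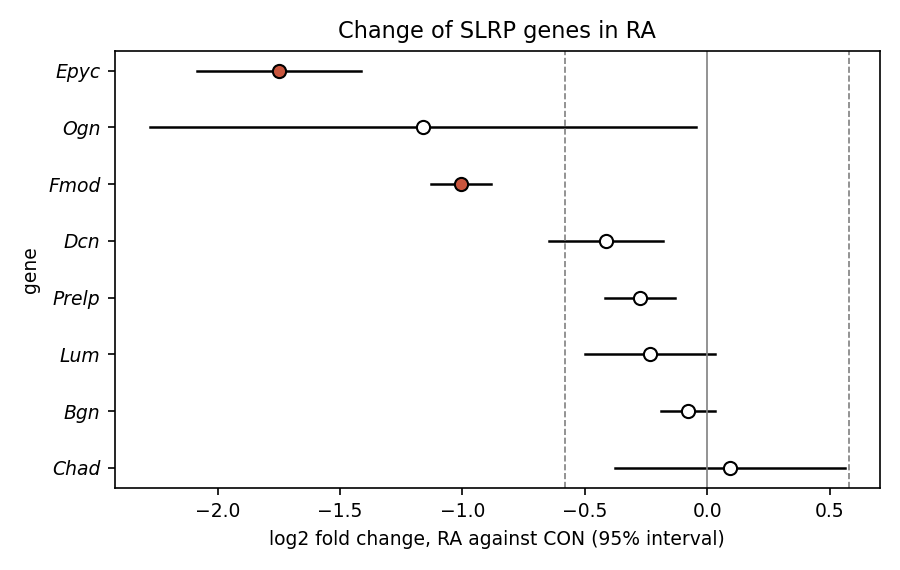
Log2 fold change (x axis, RA against CON) of the 8 tested SLRP genes (y axis), with 95% intervals, filled where the gene was a DEG and with dashed lines at 0.58 in either direction. The intervals of Epyc and Fmod lie wholly beyond the dashed line on the side of lower expression, while that of Bgn lies between 0.030 and -0.19.

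Since FPKM is per length, the make-up of the family could be compared within a sample. Bgn made up 60.4%, 60.1% and 61.8% of the summed FPKM of the 9 genes in the CON samples and 69.4%, 69.8% and 69.1% in the RA samples. Fmod made up 19.4%, 20.7% and 20.6% in CON and 11.8%, 12.5% and 12.2% in RA. The higher share of Bgn went with a nearly level FPKM of Bgn itself, because shares add up to the same total. Lum (9.91% ± 1.53 in CON, 10.2% ± 0.604 in RA) and Prelp (7.22% ± 0.534 in CON, 7.20% ± 0.231 in RA) kept shares that overlapped between the groups (SD, n = 3 each). The share of Epyc went from 1.32% ± 0.229 to 0.475% ± 0.0579.

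**Figure D3:**
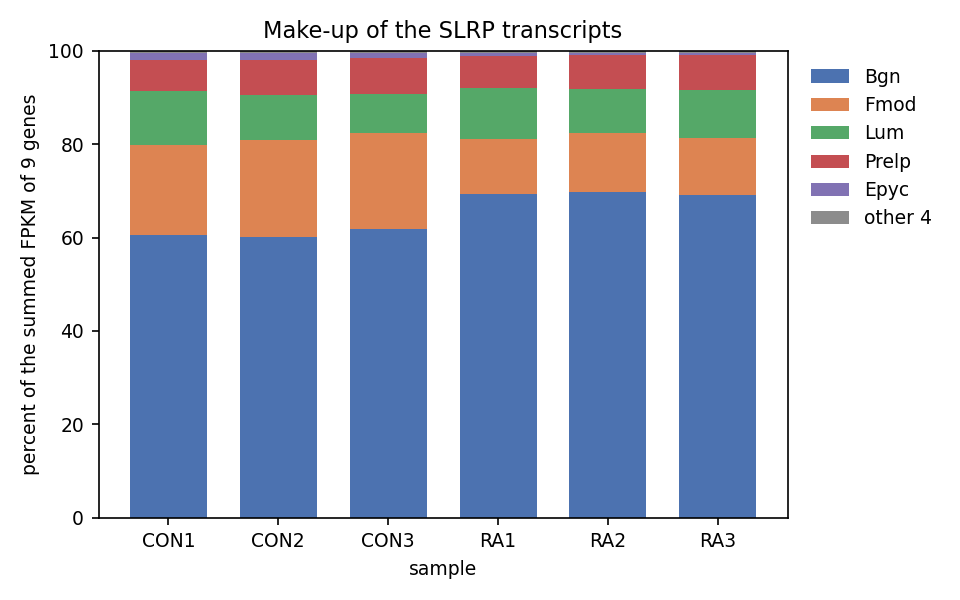
Share of each SLRP gene in the summed FPKM of the 9 genes (y axis, percent) in each sample (x axis). The Fmod segment is narrower and the Bgn segment taller in the 3 RA samples than in the 3 CON samples.

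Several members are neighbours in the genome. In the RefSeq annotation of GRCr8, Dcn, Lum, Kera and Epyc follow each other on chromosome 7, Optc, Prelp and Fmod on chromosome 13, and Ogn, Omd and Aspn on chromosome 17. Bgn, on the X chromosome, and Chad, on chromosome 10, have no family member within 4 protein-coding genes. On chromosome 7 the ratio of Lum to Epyc, both in FPKM, stood at 7.54, 7.15 and 7.88 in CON and at 20.1, 20.4 and 24.5 in RA. On chromosome 13 the ratio of Fmod to Prelp, which are adjacent, was 2.93, 2.76 and 2.73 in CON and 1.69, 1.74 and 1.64 in RA. Of the pair that competes for collagen, the ratio of Fmod to Lum was 1.69, 2.11 and 2.44 in CON and 1.09, 1.31 and 1.18 in RA. The ratio of Bgn to Fmod went from 3.01 ± 0.104 to 5.72 ± 0.157 (SD, n = 3 each). These ratios were chosen after the values were seen, and each holds Fmod or Epyc, whose groups did not overlap. An exact permutation test in both directions gave p = 0.1 for each, and adjusted p = 0.1 over 5 ratios, that of Bgn to Dcn included. With 3 samples in each group this test can give no smaller p, so the ratios only describe the samples.

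The other leucine-rich matrix proteins were no DEGs with all 6 samples. Of 8 listed genes 4 were tested, and the count of DEGs was 0 with edgeR and limma and 1 with DESeq2, while 2 had an unadjusted edgeR p below 0.05. These 2, named after their values were seen, were Podnl1, which stood at 0.57 on the log2 scale (edgeR, adjusted p = 0.0925), and Chadl, at -0.88 (edgeR, adjusted p = 0.0930). Chadl, a relative of chondroadherin, was at 3.51, 8.30 and 6.91 FPKM in CON and 3.01, 3.57 and 3.68 in RA, so that CON sample 1 lay within the RA samples. Without CON sample 1, Chadl was a DEG at -1.17 (edgeR, adjusted p = 5.0e-05). Podnl1 was at 6.30, 10.8 and 10.3 FPKM in CON and 13.4, 13.6 and 14.1 in RA, and without CON sample 1 it passed the adjusted p at 0.36 (edgeR, adjusted p = 0.00173), below the fold-change threshold. Tsku, which encodes tsukushi, was at a similar level in both groups, from 40.7 to 47.8 FPKM. Optc, the neighbour of Prelp, stood at -0.51 (edgeR, adjusted p = 0.251). Kera, between Lum and Epyc, had at most 2 reads in a sample.

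The chains that SLRPs carry are built by shared enzymes. Of 21 tested genes of the linkage region and of chondroitin and dermatan sulfate synthesis, 4 fell, 1 rose and 16 were not DEGs, or 23.8% called. Xylt1, the xylosyltransferase that starts the chain on the core protein, was at 46.5, 51.1 and 52.3 FPKM in CON and 21.0, 22.8 and 20.3 in RA, a log2 fold change of -1.24 (standard error 0.0765). Chst11, a chondroitin sulfotransferase, changed by -0.77 on the log2 scale, and Csgalnact1 and Chsy3 were the other DEGs that fell. Chst15, which adds a further sulfate to chondroitin sulfate, rose by 0.88. Csgalnact1 was no DEG without CON sample 1 (-0.56), and Chsy3 lost the call without CON sample 2 (-0.57) and without any 1 of the RA samples (-0.70, -0.68 and -0.53 without samples 1, 2 and 3). The median of the list was -0.040. Of the 11 genes of keratan sulfate synthesis, the chain of fibromodulin and lumican, 2 rose and 9 were not DEGs, or 18.2% called. These were Chst2, a sulfotransferase, with 0.78 (standard error 0.124) and the sialyltransferase gene St3gal1 with 0.78 (standard error 0.0647). The list's median was 0.11.

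Collagens are the main partners of SLRPs. Of the 11 tested, 3 fell and 8 were not DEGs, or 27.3% called, with a median of -0.16. Col2a1 changed by -0.78 and Col11a2 by -0.70, and Col11a1 was the third DEG. Col11a1 was no DEG without CON sample 1 (-0.56), and Col11a2 lost the call when CON sample 2 (-0.64) or the RA samples 1 (-0.64) or 2 (-0.71) were left out. Col12a1, named after its values were seen, was not a DEG at -0.55 and became one without CON sample 2 (-0.60). Of 9 tested proteases known to cleave SLRPs, 4 rose and none fell (0 by edgeR, DESeq2 and limma, and 0 at an unadjusted edgeR p below 0.05), or 44.4% called, with a median of 0.20. Mmp9 had a log2 fold change of 2.88 and Mmp13, a collagenase that also cleaves fibromodulin, one of 2.26. Mmp9 had 18, 15 and 7 reads in the CON samples and 79, 78 and 121 in the RA samples, so that it passed the filter through its RA counts. The filter thus favoured a rise of Mmp9, and the share and median of this list include it. Over all tested genes 4.96% were called. Mmp3 and Htra1 were the other DEGs of this list. Of 14 tested growth factors and receptors that SLRPs bind, 2 rose, Itga2 with 1.78 and Bmp4 with 0.64, or 14.3% called. The median of this list was 0.28. Below the fold-change threshold, Egfr at 0.44 (edgeR, adjusted p = 0.00698), Met at 0.44 (adjusted p = 0.00604) and Itgb1 at 0.27 (adjusted p = 0.0399) passed the adjusted p. The transcripts of TGF-β were not DEGs, with log2 fold changes of 0.32 for Tgfb1 (adjusted p = 0.0666, edgeR), 0.087 for Tgfb2 and 0.072 for Tgfb3.

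**Figure D4:**
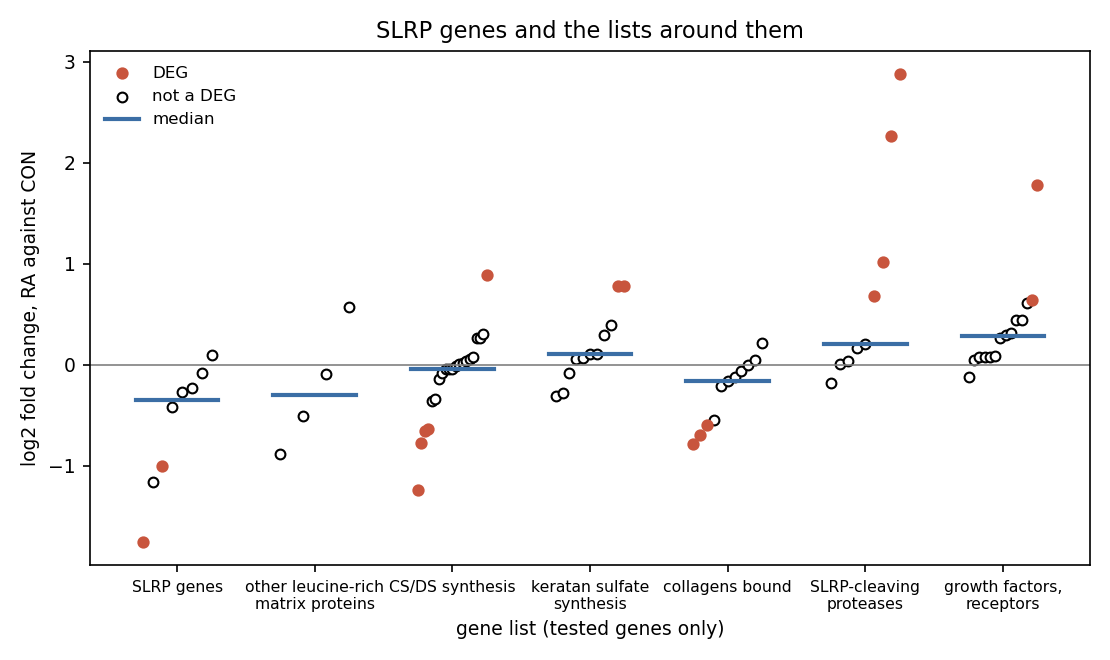
Log2 fold change (y axis, RA against CON) of each tested gene of the SLRP set and of 6 related lists (x axis), filled where the gene was a DEG, with a line at the median. The DEGs of the SLRP set lie below 0, and those of the protease list above 0.

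The falls of Epyc and Fmod stood beside lower levels of chondrocyte markers. Of the 10 markers, 9 were DEGs and lower in RA, beside 2.29% of all tested genes. Sox9 passed the adjusted p but not the fold-change threshold, at -0.49 (edgeR, adjusted p = 0.00608) and with no overlap between the groups. The largest falls were those of Matn3, at -1.65 on the log2 scale, and Acan, at -1.51. Col2a1 and Col11a2 are counted both here and among the collagens above. The summed FPKM of the 10 markers lay between 6800 and 8923 in CON and between 4280 and 4618 in RA, and none of the 10 was at 0. Comp was no DEG without CON sample 3 (-0.56) or RA sample 1 (-0.57), and Col11a2 lost the call in the fits given above. In the list of fibroblast, tendon and perichondrium, which holds cells that also make SLRPs, 1 of 10 markers was a DEG, Postn at -1.28, and the median of the list was 0.065. Pdgfra passed the adjusted p in the other direction, at 0.44 (edgeR, adjusted p = 0.00155), below the fold-change threshold. The summed FPKM of this list, most of it from Col1a1 and Col3a1, lay between 3748 and 4948 in CON and between 4841 and 5095 in RA. The summed FPKM of the other marker lists was low: from 13.7 to 14.9 in CON and from 16.3 to 17.7 in RA for macrophages (0 of 4 tested markers a DEG by edgeR, DESeq2 and limma, and 1 at an unadjusted edgeR p below 0.05), most of it from Cd14. For skeletal muscle it was 4.72 to 6.00 in CON and 6.96 to 7.87 in RA, most of it from Des, and 1 of 2 tested markers was a DEG, Myod1 at 1.93. Myod1 had 7 reads or fewer in each CON sample and passed the filter on its RA counts of 25, 22 and 17, and it lost the call when CON sample 2 (1.76) or the RA samples 1 (1.80) or 2 (1.89) were left out. For osteoblasts it was 11.9 to 13.5 in CON and 12.4 to 13.2 in RA, with 1 DEG among 4 tested markers, Ibsp at 1.47, while Alpl passed the adjusted p in the other direction at -0.42 (edgeR, adjusted p = 0.0219). For endothelium it was 5.29 to 7.97 in CON and 6.06 to 6.75 in RA, nearly all of it from Egfl7, the 1 tested marker, which was not a DEG (edgeR, DESeq2 and limma gave 0 DEGs, and 0 markers had an unadjusted edgeR p below 0.05). In bulk RNA, fewer cells of a type and less RNA per cell cannot be told apart, and the part of cell make-up in the changes of the SLRP genes was not tested.

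Over the 6 samples, the genes whose log2 CPM followed Epyc most closely among 11341 expressed genes were Ugt1a6 (Pearson r = 0.999), Hapln1 (r = 0.998), which encodes the link protein of aggrecan, and Papss2 (r = 0.998), which makes the sulfate donor of glycosaminoglycan chains. Ugt1a6 went from 1.69 to 1.33 FPKM, Hapln1 from 291 to 119 FPKM and Papss2 from 88.9 to 46.7 FPKM, so a high r did not go with a like size of change. For Bgn the closest were Uggt1 (r = 0.991), Mdk (r = 0.985) and Rpl28 (r = 0.984). These values are descriptions over 6 samples that share their libraries and fall into 2 groups.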

How the data were processed

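Poly(A) RNA libraries of 3 CON and 3 RA samples were sequenced on an Illumina HiSeq instrument after preparation with an NEBNext Ultra kit. The authors deposited, for each sample, raw counts of reads per gene without normalization. The deposited FPKM values correct the same counts for gene length and sequencing depth, and no further scaling was found in them. The submitters' processing notes name HISAT2, HTSeq 0.13.5 and the build Rnor 6.0. The gene annotation and the strand setting are not given in the sources used here, so overlapping and antisense genes cannot be told apart. No GRCr8 position was transferred to the counts.

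Samples were grouped by their titles. Counts were analysed with edgeR 4.0.16 in R 4.3.3 (TMM, filterByExpr with a minimum count of 10, glmQLFit and glmQLFTest, no covariates), with p-values adjusted by Benjamini-Hochberg over all 13438 tested genes. Standard errors came from the F statistic, and 95% intervals from the same degrees of freedom. A count of 0 allows up to 3 reads, between 0.0789 and 0.102 CPM, which covers counting error only, as reads without molecular identifiers are not independent molecules. The members and gene lists were chosen with earlier results of these data known. Every member was named, and of each list of related genes, apart from the cell type markers, the DEGs, the 2 largest in each direction with values, as well as the 3 genes closest to the member with the largest change and to the most abundant one by Pearson r of log2 CPM, among tested genes with a mean FPKM of at least 1. Csgalnact1, Chsy3, Col11a1, Tsku, Optc, Kera, Egfr, Met, Itgb1 and Tgfb1 to Tgfb3, with values outside this rule, were chosen after their values were seen. So were the ratios between members and the single cell type markers named. Listed genes with no row under their symbol were not analysed here. The statistics were tested on simulated counts for 13438 genes. For RA against CON, edgeR called, in the simulation, 80% of 100 genes changed 2-fold and 98% of 100 changed 4-fold, with 4 false calls. Alternatives used DESeq2 1.42.0 and limma 3.58.1 on log2(FPKM + 0.1) and log2(FPKM + 1), other scalings, filters and thresholds, and each sample left out.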

Additional observations from a re-analysis of the deposited data

How the results depend on the processing

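Fmod and Epyc were DEGs in all 16 alternatives, with log2 fold changes between -1.03 and -0.97 and between -1.88 and -1.60. The adjusted p alone and the unadjusted p with the fold change only loosen the rule on the main fit, so the calls could not be lost there. The number of DEGs among the members was 2, and 4 under an adjusted p alone, where Dcn and Prelp were added by the construction of the rule. It was 3 under an unadjusted p with the fold change, where Ogn was added. Over all genes the number was 667, 434 in limma on log2(FPKM + 1), where the pseudocount shrinks the change of low genes, 1319 under an adjusted p alone and 1017 under an unadjusted p with the fold change. With a sample left out it lay between 480 and 755 over all genes, stayed at 2 among the members and lay between 14 and 16 in the related lists. With a sample left out, Chad lay between -0.10, without CON sample 1, its lowest CON sample, and 0.30, and was no DEG in any of these fits. The summed FPKM of RA relative to CON lay between 0.823 and 0.853 over all alternatives. Deviations from the group mean in samples of the same replicate number correlated at 0.093, -0.012 and 0.012. Samples of different numbers were not set beside them, so these values cannot decide whether the numbers pair the samples. With the replicate block 684 genes, 2 members and 18 genes of the related lists were DEGs. Depth limits the values of Ogn and Aspn.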

Other observations

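The CON samples differed among themselves in most members. Dcn, Lum and Epyc were each highest in CON sample 1 and lowest in CON sample 3, at 8.81 and 7.21, 232 and 162, and 30.7 and 20.5 FPKM. Ogn was also highest in CON sample 1, at 0.544 FPKM. The same pattern was seen in some genes outside the family, with Hapln1 at 343 FPKM in CON sample 1 and 241 in CON sample 3, and Mmp13 at 64.3 and 40.9. Other genes ran the opposite way, with Acan at 642 FPKM in CON sample 1 and 783 in CON sample 3, and Col2a1 at 4328 and 6135. Prelp and Chad had their lowest CON value in CON sample 1 and their highest in CON sample 3, and Bgn and Fmod varied little, with coefficients of variation of 3.72% and 0.782% in CON. In RA the coefficients of variation were smaller than in CON for Dcn, Bgn, Lum, Prelp, Epyc and Chad, and larger for Fmod, Ogn and Aspn. These differences between 3 samples were not tested.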
